A study of Homo sapiens with 5 samples.

Results

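The outer 3 Mb of the human autosomes are described here by the EZH2 and H3K27me3 domains called in them in HT1376 cells, an established human bladder carcinoma line. A domain is a set of overlapping called intervals merged within 1 library, and it is a member when its midpoint lies within 3 Mb of an end of chromosomes 1 to 22 in hg38. The 5 acrocentric chromosomes contributed their long-arm end alone, which gave 17 short-arm and 22 long-arm ends and 117 Mb in all, or 4.07% of the autosomal sequence. Members numbered 10128 of 81765 autosomal domains over the 4 libraries. They were 3196 of 26824 EZH2 domains in CPI-0209, 2261 of 18331 EZH2 domains in DMSO, 2555 of 15601 H3K27me3 domains in CPI-0209 and 2116 of 21009 H3K27me3 domains in DMSO. Position alone decided membership, and no measured value entered it.

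The cells had been given 250 nM CPI-0209, a small-molecule inhibitor of EZH2, for 8 days, or its vehicle DMSO. Chromatin was fixed and immunoprecipitated with an antibody to EZH2 or to H3K27me3 and sequenced (ChIP-seq), with 1 library for each of the 4 groups; 1 input library was not analysed here. The interval lists carry positions without scores or counts, so the depth is unknown, and a stretch without a call is not thereby shown to lack the mark. With 1 library per group there was no replicate check and no test between CPI-0209 and DMSO. Limits in brackets are exact (Clopper-Pearson) 95% limits of a counted share. They cover counting error only, and neighbouring domains and genes are not independent.

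EZH2 is the enzyme of Polycomb repressive complex 2 that trimethylates lysine 27 of histone H3. H3K27me3 typically lies over CpG-rich promoters of silent developmental genes and spreads from there into broad domains. Human chromosome ends pass inward from telomere repeats through subtelomeric repeat blocks, which hold multicopy families such as olfactory receptors, into GC-rich and gene-dense sequence. Inhibitors of EZH2 block its methyltransferase activity without removing the protein, and existing methylation is then lost as cells divide.

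The sequences below show the kinds of promoter and small RNA that lie under the outer domains, so that each outcome reported further on has an example. Promoters are the 250 bases before the annotated start (RefSeq, GRCh38.p14), 5′ to 3′ on the gene's strand, with each CG dinucleotide in capitals. IRX4 (chr5:1887180-1887429, minus strand) and FOXF2 (chr6:1389326-1389575, plus strand) encode developmental transcription factors and carried H3K27me3 in both conditions. SALL3 (chr18:78979568-78979817, plus strand), a zinc finger factor of limb and nervous system development, and DEFB128 (chr20:189712-189961, minus strand), a beta-defensin gene, carried it in DMSO alone. POLR2L (chr11:842530-842779, minus strand), an RNA polymerase subunit gene, lay under EZH2 in both conditions and under H3K27me3 in neither.
IRX4: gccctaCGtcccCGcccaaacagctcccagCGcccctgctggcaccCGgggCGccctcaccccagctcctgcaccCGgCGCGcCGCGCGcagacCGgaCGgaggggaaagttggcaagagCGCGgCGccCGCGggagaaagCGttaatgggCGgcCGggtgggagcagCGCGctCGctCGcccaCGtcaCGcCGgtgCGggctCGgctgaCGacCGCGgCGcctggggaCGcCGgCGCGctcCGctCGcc
FOXF2: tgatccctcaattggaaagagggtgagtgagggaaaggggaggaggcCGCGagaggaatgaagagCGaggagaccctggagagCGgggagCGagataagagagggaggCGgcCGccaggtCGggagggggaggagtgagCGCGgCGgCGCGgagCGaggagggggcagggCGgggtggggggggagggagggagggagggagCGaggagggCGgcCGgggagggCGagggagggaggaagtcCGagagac
SALL3: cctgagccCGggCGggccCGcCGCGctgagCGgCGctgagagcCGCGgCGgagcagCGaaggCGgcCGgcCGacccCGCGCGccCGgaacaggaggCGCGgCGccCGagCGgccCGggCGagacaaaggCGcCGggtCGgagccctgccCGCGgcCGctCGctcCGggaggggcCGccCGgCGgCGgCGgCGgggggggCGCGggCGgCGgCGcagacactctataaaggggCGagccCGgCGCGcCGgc
DEFB128: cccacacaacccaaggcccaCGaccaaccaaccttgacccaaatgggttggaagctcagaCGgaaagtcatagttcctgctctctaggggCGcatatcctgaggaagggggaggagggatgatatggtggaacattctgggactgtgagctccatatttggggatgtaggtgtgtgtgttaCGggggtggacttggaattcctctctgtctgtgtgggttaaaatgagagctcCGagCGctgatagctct
POLR2L: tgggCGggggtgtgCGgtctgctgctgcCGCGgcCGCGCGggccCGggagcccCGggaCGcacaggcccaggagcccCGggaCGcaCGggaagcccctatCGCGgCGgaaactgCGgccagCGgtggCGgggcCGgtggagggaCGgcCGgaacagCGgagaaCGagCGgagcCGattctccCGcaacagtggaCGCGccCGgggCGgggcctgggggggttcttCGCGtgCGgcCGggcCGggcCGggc
These windows held 40 CG dinucleotides for IRX4, 20 for FOXF2, 49 for SALL3, 6 for DEFB128 and 37 for POLR2L. CG reads the same on both strands, overlaps no other motif searched, and occurred at least once in 96.9% of the 15100 promoters of this length read. The 2 promoters marked in DMSO alone thus had the highest and the lowest CG content of these 5.

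Mature miRNAs (RefSeq, GRCh38.p14) from hairpins in the outer windows are given with the seed, bases 2 to 8, in capitals. They were picked after their values were seen: hairpins of miR-200b, miR-429, miR-1, miR-133a and miR-203a lay under H3K27me3 in both conditions, and those of miR-126 and miR-340 in DMSO alone.
miR-200b-3p: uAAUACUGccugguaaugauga
miR-429: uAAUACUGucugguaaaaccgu
miR-1-3p: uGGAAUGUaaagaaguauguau
miR-133a-3p: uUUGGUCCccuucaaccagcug
miR-203a-3p: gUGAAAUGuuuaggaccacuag
miR-126-3p: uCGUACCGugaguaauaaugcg
miR-340-5p: uUAUAAAGcaaugagacugauu
The 7 sequences have 6 different seeds, since miR-200b-3p and miR-429 share AAUACUG.

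In each of the 4 libraries the outer windows were more densely covered by domains than the rest of the same chromosomes. EZH2 domains covered 36.7% of the outer windows in CPI-0209 and 30.5% in DMSO. The rest was covered to 6.57% in CPI-0209 and 5.66% in DMSO, so the outer share was 5.58 times and 5.38 times that of the rest. H3K27me3 domains covered 22.1% of the outer windows in CPI-0209 and 36.2% in DMSO, against 3.15% and 9.72% of the rest. The ratio of outer to rest for H3K27me3 was thus wider in CPI-0209, at 6.99, than in DMSO, at 3.73. The outer windows held 22.9% of all autosomal H3K27me3 length in CPI-0209 and 13.7% in DMSO, and 19.1% of EZH2 length in CPI-0209 and 18.6% in DMSO. The covered share was higher in the outer windows than in the rest of the same chromosome on 22 of 22 autosomes in every library. For H3K27me3 in DMSO the ratio ran from 1.18 on chromosome 19 to 7.63 on chromosome 13. The rest includes unassembled stretches, which lower its covered share. An alternative chosen after seeing the data used only 1 Mb bins with a call in any library. The ratios over all autosomes were then 5.87 for H3K27me3 in CPI-0209 and 3.13 in DMSO, and 4.66 and 4.5 for EZH2. Counted under stretches where 2 intervals of a list overlap, the ratio for H3K27me3 was 16.8 in CPI-0209 and 4.85 in DMSO. Set against the next 3 Mb inward alone, it was 1.77 for H3K27me3 in CPI-0209 and 1.36 in DMSO, and 1.71 for EZH2 in both.

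Outer domains were also wider than those of the rest as a whole. Median widths of EZH2 domains were 7.4 kb in the outer windows and 4.4 kb in the rest in CPI-0209, and 9.8 kb and 6.2 kb in DMSO. Median widths of H3K27me3 domains were 6.8 kb in the outer windows and 4.8 kb in the rest in CPI-0209, and 11.8 kb and 8.6 kb in DMSO. The greater width did not end at 3 Mb. Between 3 and 4 Mb from the ends, EZH2 medians were 7 kb in CPI-0209 and 9.6 kb in DMSO, close to the outer ones. H3K27me3 medians there were 5.8 kb and 11 kb, between those of the outer windows and the rest. The outer median exceeded that of the rest on at least 20 of 22 chromosomes in each library. Exceptions included H3K27me3 in DMSO on chromosome 14, where the outer median was 0.718 times that of the rest. Domains of 60 kb or more made up 6.1% of outer H3K27me3 domains in DMSO (129 domains) and 2.88% of those in the rest. In CPI-0209 21 outer H3K27me3 domains were that wide, or 0.822%, against 0.23% in the rest.

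The higher cover did not end at 3 Mb. H3K27me3 in DMSO covered 27.5% of the outermost 0.5 Mb, 39.4% between 0.5 and 1 Mb, and 38.4% between 2 and 3 Mb. Cover between 3 and 4 Mb was 35.8%, and it dropped to 22% between 4 and 6 Mb and to 6.15% beyond 40 Mb. The outermost 0.5 Mb was thus less covered than the sequence just inside it, in all 4 libraries. For EZH2 the most covered bin was 1 to 1.5 Mb, with 43.6% in CPI-0209 and 36% in DMSO. The first called domain lay a median of 145 kb from the end for H3K27me3 in CPI-0209, 118 kb for H3K27me3 in DMSO, 125 kb for EZH2 in CPI-0209 and 133 kb for EZH2 in DMSO. The outermost kilobases of most ends therefore carried no call.

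**Figure D1:**
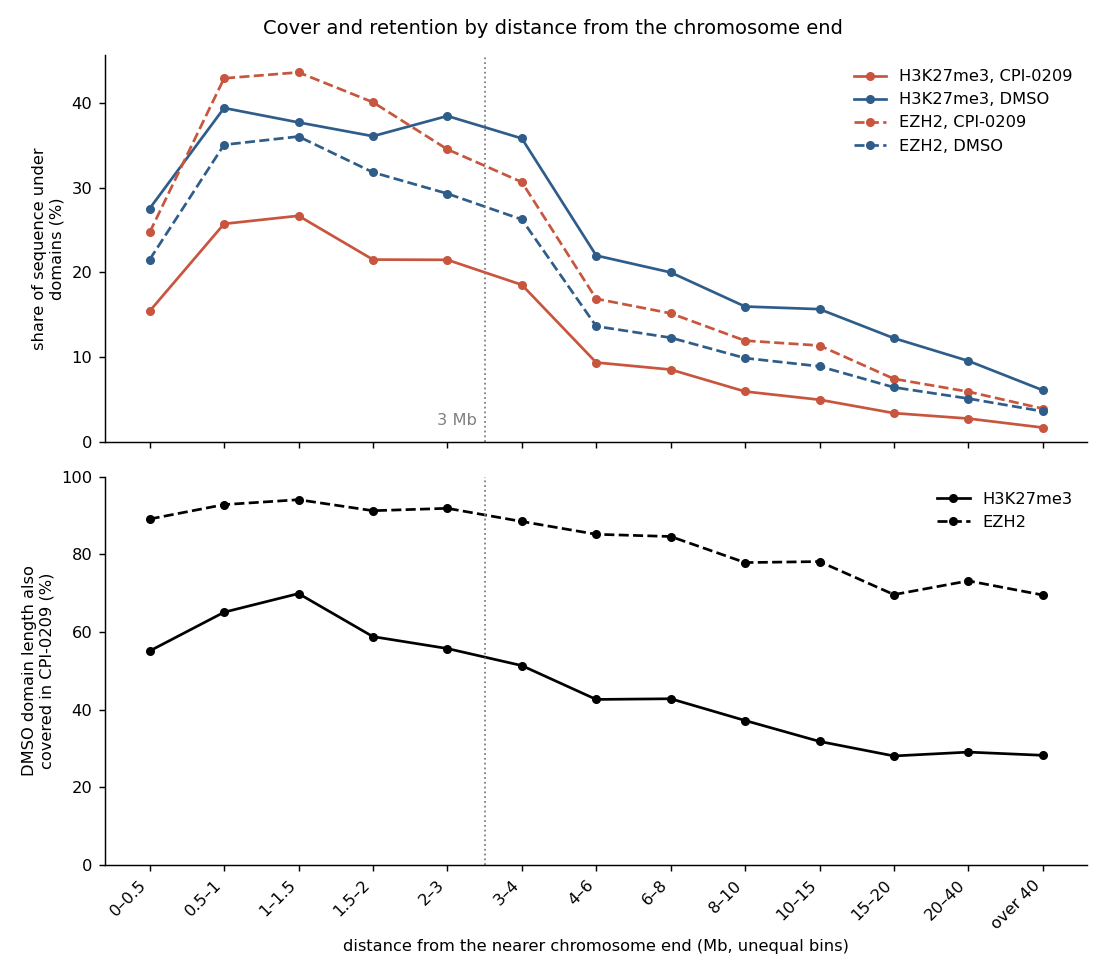
Upper panel: percent of sequence under domains in each of the 4 libraries, by distance from the nearer chromosome end in unequal bins. Lower panel: percent of DMSO domain length also covered in CPI-0209. Cover and retention were highest within the first megabases and declined inward without a step at the dotted 3 Mb line.

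The outer windows held 15.1 protein-coding genes per Mb, against 6.29 in the rest, so cover was also compared among 1 Mb bins with like gene numbers. In bins with 20 or more genes H3K27me3 covered 22.2% of the outer windows and 9.12% of the rest in CPI-0209, and 30.2% and 20.3% in DMSO. In bins with 1 to 4 genes the DMSO cover was 32% in the outer windows and 5.49% in the rest. The outer share was the higher one in all 5 classes of gene number and all 4 libraries. As a ratio of outer to rest, the contrast was wider where genes were few. In bins without genes both H3K27me3 shares in DMSO were low, at 4.45% and 0.272%. The outer share in DMSO was highest, at 49.2% against 19.3% in the rest, in bins with 10 to 19 genes. Retained H3K27me3 length, the percent of DMSO length also covered in CPI-0209, was 72.4% in the outer windows and 44.4% in the rest for bins with 20 or more genes, and 45.5% and 21.9% for bins with 1 to 4. Base composition and the share of sequence that can be read uniquely were not compared.

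Cover differed widely among the 39 ends. The median end had 39.6% under H3K27me3 in DMSO, and the highest were 5p with 69.9%, 13q with 56.2% and 20q with 55.8%. The same ends in CPI-0209 had 50.3% at 5p, 42.3% at 13q and 48.8% at 20q, and they were the 3 highest there too. At 3p no H3K27me3 domain was called in either condition, at 4q the share was 0.28% in CPI-0209 and 1.89% in DMSO, and at 1q it was 2.52% and 11.3%. The low ends were therefore low for both conditions. The 3p window holds 5 protein-coding genes, among them CHL1 and CNTN6, cell adhesion molecules of the nervous system. EZH2 covered 0.133% of it in CPI-0209 and none in DMSO. EZH2 cover was highest at 20q with 72.2% in CPI-0209 and 64.2% in DMSO, 5p with 71.4% and 67.4%, and 11p in CPI-0209 with 67.5%; in DMSO 13q, with 58.3%, stood before 11p, with 55.7%. Besides 3p, EZH2 was lowest at 4q with 0.5% in CPI-0209 and 0.353% in DMSO, and next at 1q in CPI-0209 with 4.69% and 18p in DMSO with 4.33%. Gene number went with cover only loosely across the 39 ends, with r = 0.48 (rho = 0.585) for EZH2 in CPI-0209 and r = 0.0459 (rho = 0.116) for H3K27me3 in DMSO. These are descriptions over ends that share the same libraries.

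**Figure D2:**
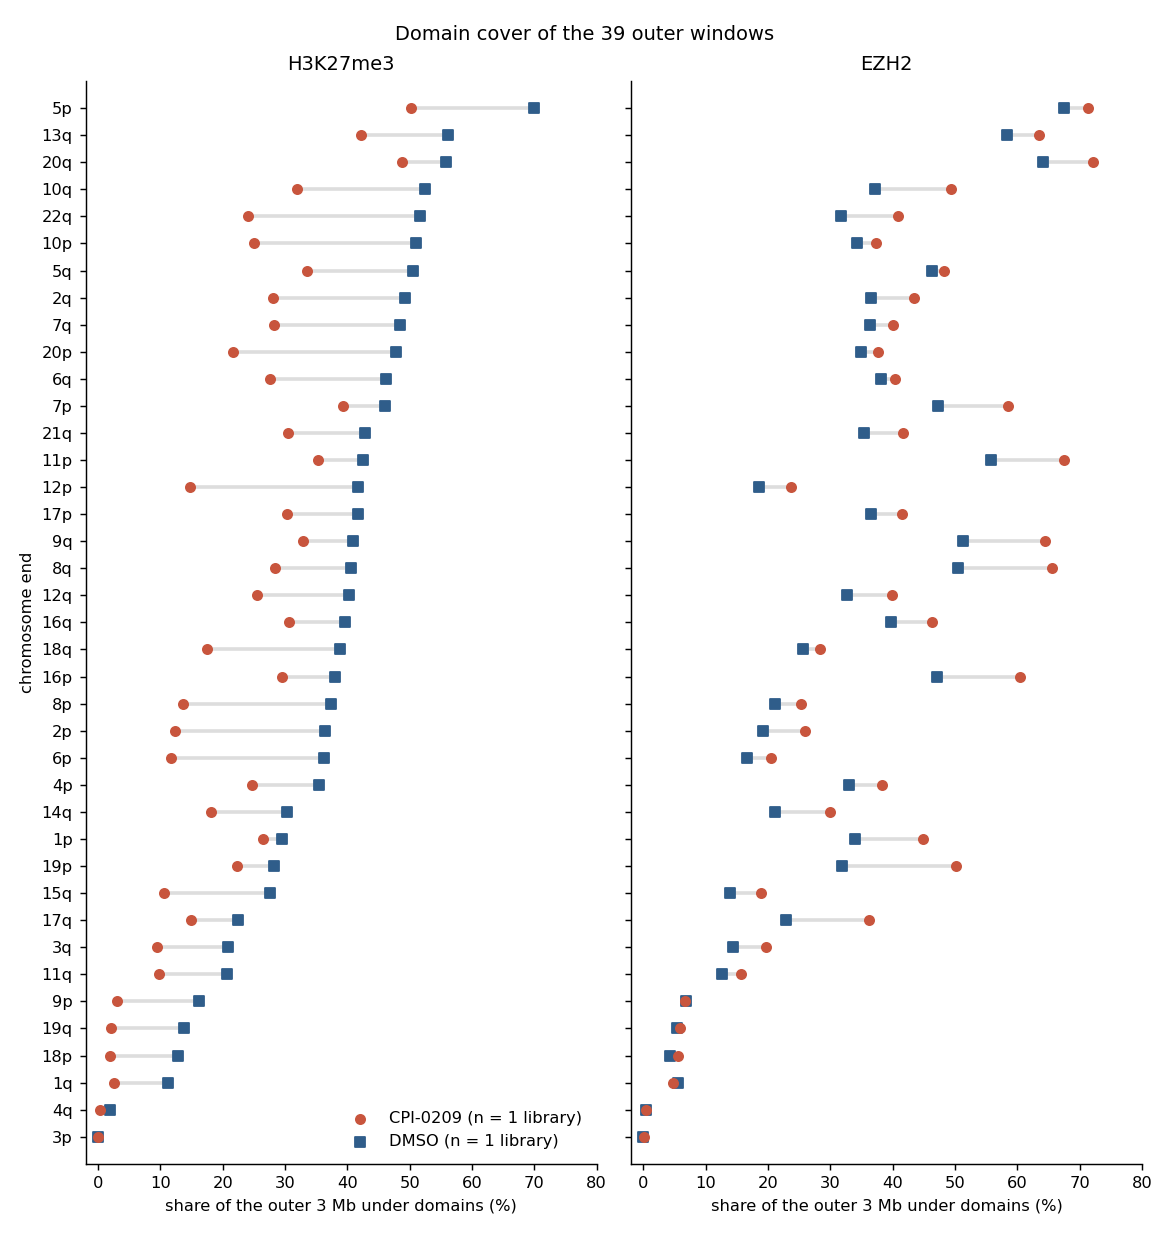
Percent of each outer window under H3K27me3 (left) and EZH2 (right) domains in CPI-0209 (circles) and DMSO (squares), 1 library each, with ends ordered by H3K27me3 in DMSO. H3K27me3 in CPI-0209 lies left of DMSO at all 38 ends with a DMSO domain, and EZH2 in CPI-0209 lies right of DMSO at 36 of 38.

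After CPI-0209 the outer windows carried less H3K27me3 and more EZH2 length. H3K27me3 covered 25.8 Mb in CPI-0209 and 42.4 Mb in DMSO, a ratio of 0.609, against 0.325 in the rest. The number of outer H3K27me3 domains was nonetheless higher in CPI-0209, 2555 against 2116 in DMSO, or 1.21 times, whereas in the rest it was 0.691 times. The ratio of H3K27me3 length was under 1 at all 38 ends with a DMSO domain, from 0.148 at 4q to 0.895 at 1p. EZH2 covered 42.9 Mb in CPI-0209 and 35.7 Mb in DMSO, a ratio of 1.2 in the outer windows against 1.16 in the rest. EZH2 length was higher in CPI-0209 at 36 of 38 ends, and lower at 1q (0.836) and 9p (0.985).

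H3K27me3 domains of the outer windows met a CPI-0209 domain more often than those of the rest. Of 2116 outer domains in DMSO, 1350 overlapped an H3K27me3 domain in CPI-0209 by at least 1 bp, or 63.8% (61.7 to 65.9). In the rest it was 38.9% (38.2 to 39.6), and over all autosomes 41.4%. By length, 60.4% of outer H3K27me3 in DMSO was also covered in CPI-0209, against 32.2% in the rest. The outer share was higher on 22 of 22 chromosomes, by 2.58 percentage points on chromosome 22 up to 49.1 on chromosome 13. Of the domains that met one, 760 met 1 domain in CPI-0209 and 590 met several, up to 13; in the rest 4937 met 1 and 2421 several, up to 21. In the reverse comparison 16 outer H3K27me3 domains in CPI-0209, 0.626%, met none in DMSO, against 1.23% in the rest and 1.13% over all autosomes. By length 0.885% of outer H3K27me3 in CPI-0209 and 0.75% of that in the rest lay outside DMSO domains.

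The size of the contrast depended on how the lists were read. When only the widest DMSO domains were used, up to the total length of CPI-0209, 77.1% of outer length and 55% of the rest was retained, but the difference in the share of domains met shrank to 3.07 points. Under stretches of 2 overlapping intervals retained length was 18.2% in the outer windows and 5.27% in the rest.

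EZH2 domains of the outer windows were nearly all met again. Of 2261 outer EZH2 domains in DMSO, 2196 met one in CPI-0209, or 97.1% (96.4 to 97.8), against 86.2% in the rest and 87.6% over all autosomes. By length it was 92.1% in the outer windows and 75.1% in the rest. The reverse comparison found 1002 of 3196 outer EZH2 domains in CPI-0209 without one in DMSO, or 31.4% (29.7 to 33), against 39.6% in the rest and 38.6% over all autosomes. By length 23.4% of outer EZH2 in CPI-0209 lay outside DMSO domains, against 35.3% in the rest. Newly called EZH2 domains were narrow, with a median of 4 kb, against 10.2 kb for those that met one.

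Ends differed in retention as much as in cover. H3K27me3 length was retained to 87.5% at 1p, 86.8% at 20q and 83.7% at 7p, and to 14% at 18p, 14.8% at 4q and 14.9% at 19q. For EZH2 the same 3 ends were highest, with 97.8% at 1p, 96.6% at 20q and 96.3% at 7p, and 1q (61.5%), 19q (63.1%) and 18p (68.6%) were lowest. The arms were close in sum: 58.8% of H3K27me3 length was retained over the 17 short-arm ends and 61.5% over the 22 long-arm ends. Ends with more EZH2 in DMSO retained more H3K27me3, with r = 0.855 (rho = 0.837) over 38 ends. The values were r = 0.603 (rho = 0.475) for H3K27me3 cover in DMSO and r = 0.486 (rho = 0.624) for gene number. All points share the same 2 H3K27me3 libraries, and no p is given.

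**Figure D3:**
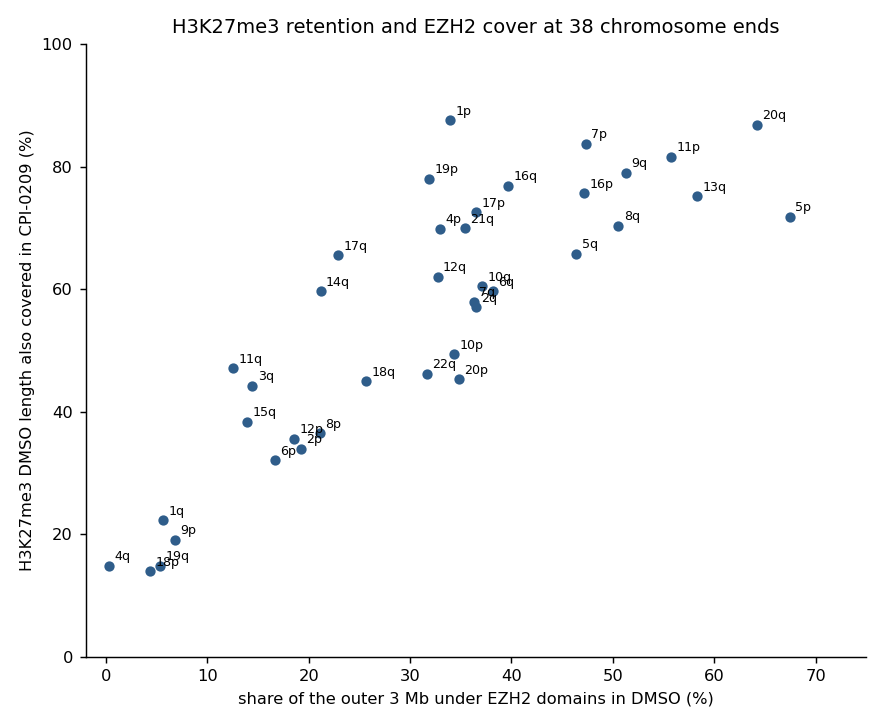
Each point is 1 of 38 chromosome ends with an H3K27me3 domain in DMSO: percent of the outer 3 Mb under EZH2 domains in DMSO (x) against percent of H3K27me3 DMSO length also covered in CPI-0209 (y). The 5 ends with under 10% EZH2 cover retained under 25% of H3K27me3 length, and 1p retained the most, 87.5%, at 33.9% EZH2 cover.

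Whether an H3K27me3 domain met EZH2 in DMSO separated retained from unretained domains in the outer windows as well as in the rest. EZH2 was met by 1345 of 2116 outer H3K27me3 domains, or 63.6% (61.5 to 65.6), against 35% (34.3 to 35.7) in the rest. Outer domains with EZH2 retained 68.5% of their length and those without it 8.38%; in the rest the values were 47.9% and 6.69%. By number, 90.5% (88.8 to 92) of outer domains with EZH2 met a CPI-0209 domain, against 85.9% (85.1 to 86.8) in the rest. Without EZH2 it was 17.3% (14.6 to 20.1) in the outer windows and 13.6% (13 to 14.3) in the rest. These limits take domains as independent, so they do not decide whether the 2 shares differ. The difference in length between outer windows and rest was therefore 20.6 percentage points with EZH2 and 1.69 without. With EZH2 taken from CPI-0209 the second turned to -0.506.

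Within domains that met EZH2, the outer ones retained more length in each of 5 width classes. Outer domains over 40 kb wide retained 78.8% of length and those of the rest 58%, while nearly all met a CPI-0209 domain in both, 256 of 256 in the outer windows and 1076 of 1087 in the rest. Domains of 10 to 20 kb retained 56.1% in the outer windows and 34.5% in the rest, and those of 5 kb or less 45.6% and 36%. The share of domains met was near equal in the narrow classes, with 76.6% and 77.1% for those of 5 to 10 kb, so the gap at narrow domains lay in the length covered. Without EZH2 the outer windows were higher up to 20 kb, and lower between 20 and 40 kb, with 8.49% of length in 22 outer domains and 11.2% in the rest.

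**Figure D4:**
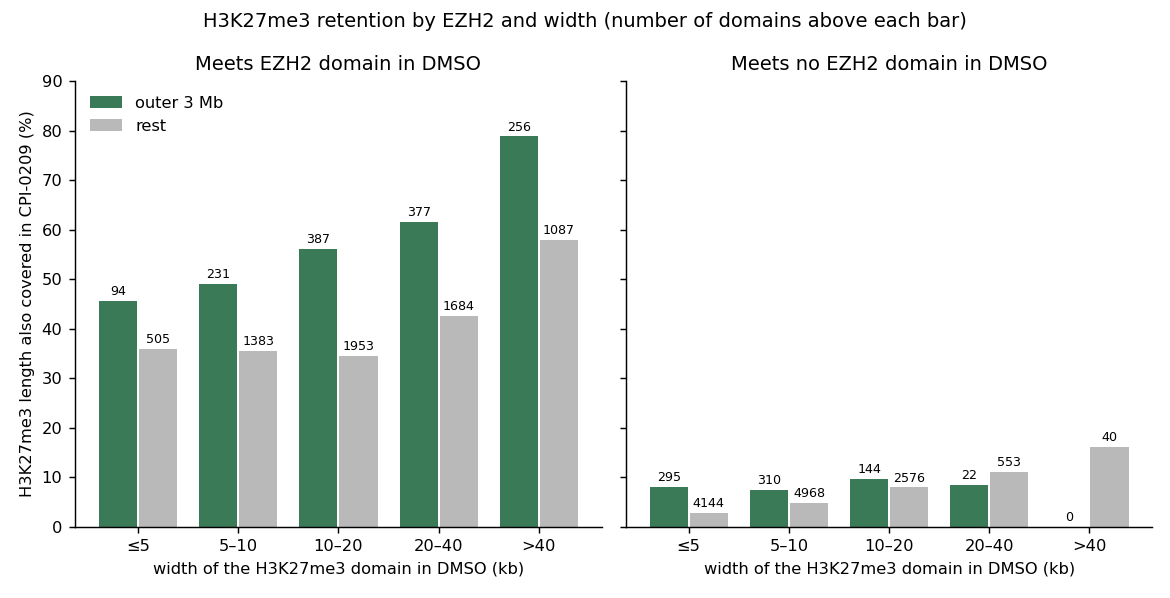
Percent of H3K27me3 DMSO length also covered in CPI-0209 by width class, for domains that meet an EZH2 domain in DMSO (left) and those that meet none (right), in the outer windows (green) and the rest (grey), with the number of domains above each bar. Outer bars are the taller ones in all 5 classes with EZH2, and no outer domain over 40 kb lacked EZH2.

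The 5 widest outer H3K27me3 domains of DMSO met 1 to 4 protein-coding genes each and were covered by several separate domains in CPI-0209. The widest in DMSO, 220.2 kb at 10q (chr10:132843201-133063400) over the cilia gene CFAP46, was covered to 85.1% by 13 H3K27me3 domains in CPI-0209. A 201.4 kb domain at 1p (chr1:1919401-2120800) over GABRD, a GABA-A receptor subunit, and PRKCZ, an atypical protein kinase C, was covered to 95.4% by 6. A 191 kb domain at 16p over SOX8, a transcription factor, and the somatostatin receptor gene SSTR5 was covered to 96.5% by 6. A 186.4 kb domain at 5p that reaches into the homeobox gene IRX2 kept less, 62.2% in 13 pieces. The third in width, 192.4 kb at 8q over ADGRB1 and ARC, a synaptic plasticity gene, was covered to 89.8% by 8 domains. EZH2 covered at least 93.2% of the domains at 1p, 5p, 8q and 16p in both conditions, and 96.3% in CPI-0209 and 92.3% in DMSO of the one at 10q.

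In CPI-0209 the widest outer H3K27me3 domain, 138.4 kb at 9q (chr9:135669001-135807400), lay over KCNT1, a sodium-activated potassium channel gene, and SOHLH1, a germ cell transcription factor. It lay within a 155.6 kb domain of DMSO and was wholly under EZH2 in both conditions. The next, 106.4 kb at 20q (chr20:62510801-62617200), met no protein-coding gene but holds the hairpins of miR-1 and miR-133a, whose mature sequences are given above. Domains of 97.6 kb at 16p over CACNA1H, a T-type calcium channel gene, of 90.6 kb at 20q over SLC17A9, a vesicular nucleotide transporter gene, and BHLHE23, and of 84.8 kb at 1p over the phospholipase gene PLCH2 followed. Each of the 5 was covered to at least 98.8% by EZH2 and by H3K27me3 in DMSO. For EZH2 the widest outer domain was 266.6 kb at 16p in CPI-0209, from LMF1 over SOX8 and CACNA1H to the tryptase gene TPSB2, where DMSO had 3 EZH2 domains over 99.2% of it. In DMSO it was the 200.4 kb domain at 1p over GABRD and PRKCZ.

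Outer H3K27me3 domains without any CPI-0209 domain were narrower, with a median of 6 kb against 18.8 kb for those that met one. The widest was 39.6 kb at 12p (chr12:2476001-2515600) within CACNA1C, an L-type calcium channel gene, with no EZH2 in DMSO and 20.7% under EZH2 in CPI-0209. Of the 6 widest, 3 met no EZH2 in DMSO, namely those at 12p and both at 20p. The other 3 did: at 2q 84.9% was under EZH2 in CPI-0209 and 70.9% in DMSO, at 2p 93% and 39.5%, and at 5q, over the olfactory receptor gene OR2Y1, 48.3% and 49%. EZH2 in DMSO was therefore present at domains on both sides of this split.

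The 6 widest outer EZH2 domains of CPI-0209 without one in DMSO lay, with 1 exception, outside H3K27me3 in both conditions. They measured 30.4 kb at 8q over SCRIB, PUF60 and NRBP2, 28.6 kb at 7p in MAD1L1, a spindle checkpoint gene, and 27.6 kb at 1p over INTS11, CPTP, TAS1R3 and DVL1. Others were 25.6 kb at 8q over MROH1, BOP1 and SCX, and 25 kb at 16p over TSC2 and PKD1. The exception, 30 kb at 20p (chr20:2287801-2317800) within TGM3, which encodes an epidermal transglutaminase, was covered by H3K27me3 to 60.7% in CPI-0209 and to 100% in DMSO.

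At gene starts the outer windows showed the same order. A gene was called marked when a domain touched the 2 kb either side of its outermost listed start, and 1268 of 1770 outer protein-coding genes had a listed start, against 13832 of 17352 in the rest. H3K27me3 marked 375 outer genes in CPI-0209, or 29.6% (27.1 to 32.2), against 16.3% of the rest and 17.4% of all. In DMSO it marked 445, or 35.1% (32.5 to 37.8), against 23.6% of the rest and 24.6% of all. Of those 445 genes, 362 were marked in both conditions, 81.3% (77.4 to 84.9), against 67.1% (65.5 to 68.7) in the rest and 68.8% of all. Another 83 outer genes were marked in DMSO alone and 13 in CPI-0209 alone. The domains at genes marked in both were narrower in CPI-0209, with a median of 12.1 kb against 28.2 kb in DMSO; in the rest it was 5 kb against 18.4 kb. They were narrower in CPI-0209 at 330 of the 362 genes and wider at 30. With both record ends of all genes scored in place of the start, the difference between outer windows and rest in this share was 27.8 percentage points in place of 14.2.

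EZH2 touched most outer gene starts. It was called at 1092 of 1268 in CPI-0209, or 86.1% (84.1 to 88), against 69.2% of the rest and 70.6% of all. In DMSO it was called at 792, or 62.5% (59.7 to 65.1), against 50.9% of the rest and 51.9% of all. It was called in CPI-0209 as well at 785 of those 792, or 99.1% (98.2 to 99.6), against 94.6% of such genes in the rest and 95% of all. Of 476 outer genes without EZH2 in DMSO, 307 had it in CPI-0209, or 64.5% (60 to 68.8), against 42.9% (41.7 to 44.1) in the rest and 44.3% of all. EZH2 in DMSO lay at 95.3% (92.6 to 97.2) of the outer genes that carried H3K27me3 in both conditions and at 56.6% (45.3 to 67.5) of those that carried it in DMSO alone. In the rest those shares were 88.7% and 34.4%.

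Promoters of outer genes marked in DMSO alone held more CG in the median than those of the rest, with a wide spread. The 250 bases before the start held a median of 23 CG dinucleotides at the 83 outer genes and 7.5 at the 1076 genes of the rest. The quartiles were 6 and 33 in the outer windows and 3 and 20.25 in the rest. At least 10 CG were held by 68.7% of the 83 outer promoters, against 76.8% of all outer promoters. At genes marked in both conditions the medians were close, 19 in the outer windows and 18 in the rest. Unmarked outer promoters held a median of 27 and unmarked ones of the rest 17, so outer promoters were the richer ones as a whole (25 against 17). DEFB128, printed above with 6 CG, stands at the lower quartile of outer promoters marked in DMSO alone.

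The 9 lists of genes with known roles hold 222 genes, of which 188 lie in the outer windows. The lists were drawn up with earlier results of these data known. Their counts therefore describe the listed genes and are no independent finding about the classes. IGF2, INS, ASCL2 and KCNQ1 stand in 2 lists each and are counted in both. For comparison, H3K27me3 lay at the listed start in both conditions at 28.5% of outer genes and 16.9% of all, and in neither at 63.9% of outer genes and 74.9% of all; EZH2 lay there in both at 61.9% of outer genes and 49.3% of all. List genes with no listed start were scored at both ends of their record and called marked only when both were, so their calls are not made in quite the same way. The width given for a gene is that of the widest domain touching its window, and neighbouring genes can share 1 domain. Where both record ends were scored, it is the widest domain touching either window, so such widths can run wider. A call refers to the scored window alone. H3K27me3 can lie elsewhere in the record of a gene called unmarked or marked in DMSO alone.

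Of 32 developmental transcription factors, 24 carried H3K27me3 in both conditions and 1, SALL3, in DMSO alone, against 28.5% of outer genes and 16.9% of all marked in both. Their domains had a median width of 20.1 kb in CPI-0209 and 40.9 kb in DMSO. The medians were 12.1 kb and 28.2 kb over outer genes marked in both, and 5.4 kb and 20 kb over all such genes. Those comparison genes all had a listed start, while 10 of the 32 were scored at both record ends. The widths are thus not measured in quite the same way. IRX4, a cardiac homeobox gene, lay under 56.6 kb in CPI-0209 and 126 kb in DMSO. The forkhead genes of 6p followed with 25 kb and 37.6 kb at FOXC1, 20.4 kb and 60.8 kb at FOXF2 and 6.6 kb and 11.2 kb at FOXQ1. At its start SALL3 had no H3K27me3 in CPI-0209 and 16 kb in DMSO, while EZH2 was called there in both, over 11.8 kb and 16.8 kb. Over the whole SALL3 record H3K27me3 covered 27.2% in CPI-0209 and 64.6% in DMSO. The 6 unmarked genes included the Notch effectors HES4 and HES5, the TGF-beta repressor SKI and the neuronal factor MYT1L. HES5 carried EZH2 over 27.6 kb in CPI-0209 and 15.4 kb in DMSO, so EZH2 without H3K27me3 also occurred at this class of gene. HIC1, a tumour suppressor at 17p, was marked at 1 end of its record only.

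Growth factors, ligands and receptors were marked in both conditions at 16 of 25 genes (against 28.5% of outer genes), with none in DMSO alone and FGFRL1 in CPI-0209 alone. Their domains had a median of 23 kb in CPI-0209 and 42.4 kb in DMSO. The TNF receptor genes TNFRSF18 and TNFRSF4 shared 1 domain of 23 kb in CPI-0209 and 74 kb in DMSO. FGFR3, a receptor tyrosine kinase often mutated in bladder cancer, lay under 4.4 kb and 10.6 kb, and the Wnt antagonist NKD2 under 25 kb and 94.2 kb. Among the 8 unmarked genes AGRN, SPON2 and NOTCH1 carried EZH2 at the scored window or at 1 record end, and GPER1, an oestrogen receptor coupled to G proteins, carried neither. Away from the start, H3K27me3 covered 62.2% of the SPON2 record in CPI-0209 and 95.1% in DMSO. For WNT5B, also unmarked at its start, it was 45.8% and 81.6%, while the records of AGRN and NOTCH1 had none. NOTCH1 lay under EZH2 domains of 64.4 kb in CPI-0209 and 15.2 kb in DMSO.

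Ion channel, transmitter receptor and synaptic genes were marked in both conditions at 24 of 28 genes (against 28.5% of outer genes) and in DMSO alone at none. Their DMSO domains were the widest of the 9 lists, with a median of 17.8 kb in CPI-0209 and 60.8 kb in DMSO. Of the 28 genes, 13 were scored at both record ends. GABRD lay under 61 kb in CPI-0209 and 201.4 kb in DMSO. The NMDA receptor subunit gene GRIN1 had 20.6 kb and 21.6 kb, and the calcium channel genes CACNA1B and CACNA1C had 6.4 kb and 21.8 kb, and 6 kb and 21 kb. CACNA1C thus kept H3K27me3 at its start while the 39.6 kb domain within its body was not met in CPI-0209. The 4 unmarked genes were the dopamine receptor gene DRD4 and the adhesion genes CHL1, CNTN6 and OPCML.

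Mucins, collagens and other extracellular proteins were marked in both conditions at 13 of 22 genes (against 28.5% of outer genes), partly in CPI-0209 at MUC20 and MSLN, and in DMSO alone at CDH4, which encodes retinal cadherin. Of the gel-forming mucin genes of 11p MUC6 was marked at 1 end of its record only, and the others had domains of 9.4 kb in CPI-0209 and 62.2 kb in DMSO at MUC2, 19.2 kb and 33 kb at MUC5AC and 28.8 kb and 29.4 kb at MUC5B. The membrane mucin gene MUC4 at 3q had 40.6 kb and 61 kb. MUC5B thus differed little in width and MUC2 strongly, although both lie in 1 cluster. At its start CDH4 had no H3K27me3 in CPI-0209 and 54.2 kb in DMSO, with EZH2 over 52 kb and 53.4 kb. Over the whole CDH4 record H3K27me3 covered 57.3% in CPI-0209 and 84.2% in DMSO. Unmarked genes included the laminin gene LAMA5, the protease genes ADAM8 and CTSD, and LRRK1.

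Genes listed as imprinted, a class expressed from 1 parental copy, were marked in both conditions at 7 of 11, against 28.5% of outer genes. All 7 lie at 11p and are not separate observations. IGF2, a fetal growth factor, and INS, insulin, shared 1 domain of 28 kb in CPI-0209 and 48 kb in DMSO. ASCL2, a trophoblast and stem cell factor, had 2.8 kb and 3.6 kb, and the cell cycle inhibitor CDKN1C 75.4 kb and 70.6 kb. The domain at CDKN1C was wider in CPI-0209, and those at the other 6 marked genes were narrower. PHLDA2, NAP1L4 and PEG3 were unmarked, and the parental copies cannot be told apart in these lists.

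Blood cell genes of 16p and 19p were marked as well. At the alpha-globin cluster 5 of 7 genes carried H3K27me3 in both conditions, against 28.5% of outer genes. HBZ had 8.8 kb in CPI-0209 and 9.6 kb in DMSO, HBM 7 kb and 9.6 kb, HBA2 7 kb and 8.8 kb, and HBA1 4.6 kb and 8.8 kb. HBA1 and HBA2 are near-identical copies, so reads may not be assigned between them. Their neighbours NPRL3 and MPG were unmarked in both and had EZH2 in CPI-0209 alone. Of 9 neutrophil protease and mast cell tryptase genes 8 were marked in both, against 28.5% of outer genes, and several share a domain. AZU1, PRTN3 and ELANE, proteins of neutrophil granules, shared 1 domain of 36.8 kb in CPI-0209 and 37.2 kb in DMSO, and CFD, complement factor D, had 2.2 kb and 4.2 kb. GZMM, a granzyme, was unmarked. The granule protein domain was thus nearly as wide in CPI-0209 as in DMSO. The tryptase genes TPSB2 and TPSG1 had 37 kb in CPI-0209 and 78.2 kb in DMSO. TPSD1 had 29.6 kb and 38 kb, and TPSAB1 5 kb and 6.4 kb.

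Of 30 genes from multigene families found near chromosome ends, 24 were unmarked in both conditions, against 63.9% of outer genes and 74.9% of all, so the count is near that over all genes. Among them were DUX4, FRG1 and FRG2 at 4q and WASHC1 at 9p, which belong to near-identical copies that short reads may not tell apart. Marked in both were 3, the tubulin gene TUBB8 (3.4 kb in CPI-0209 and 6.2 kb in DMSO), DEFB132 (13.2 kb and 31 kb) and PLEKHG4B (13.4 kb and 15.8 kb). The beta-defensin genes DEFB126, DEFB128 and DEFB129 at 20p were marked in DMSO alone, with 9.6 kb, 11.8 kb and 18 kb, and had no EZH2 in either condition. Their neighbour DEFB132 had EZH2 in both, over 14.6 kb in CPI-0209 and 12 kb in DMSO.

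Housekeeping and genome maintenance genes were unmarked by H3K27me3 in both conditions at 24 of 28, against 63.9% of outer genes, and carried EZH2 in both at 19 of 28, against 61.9% of outer genes. POLR2L lay under EZH2 domains of 42.8 kb in CPI-0209 and 44 kb in DMSO, POLR2E under 15 kb and 1.4 kb, and RPS2, a ribosomal protein gene, under 36.8 kb and 7.8 kb. POLRMT, the mitochondrial RNA polymerase gene, had EZH2 in CPI-0209 alone, over 3.6 kb. TERT, the telomerase catalytic subunit gene, was the 1 gene of this list with H3K27me3 in both, over 12 kb in CPI-0209 and 16.2 kb in DMSO. HRAS (2.8 kb) and CHTF18 (15.4 kb) carried it in CPI-0209 alone, and DNMT3L at 1 record end.

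**Figure D5:**
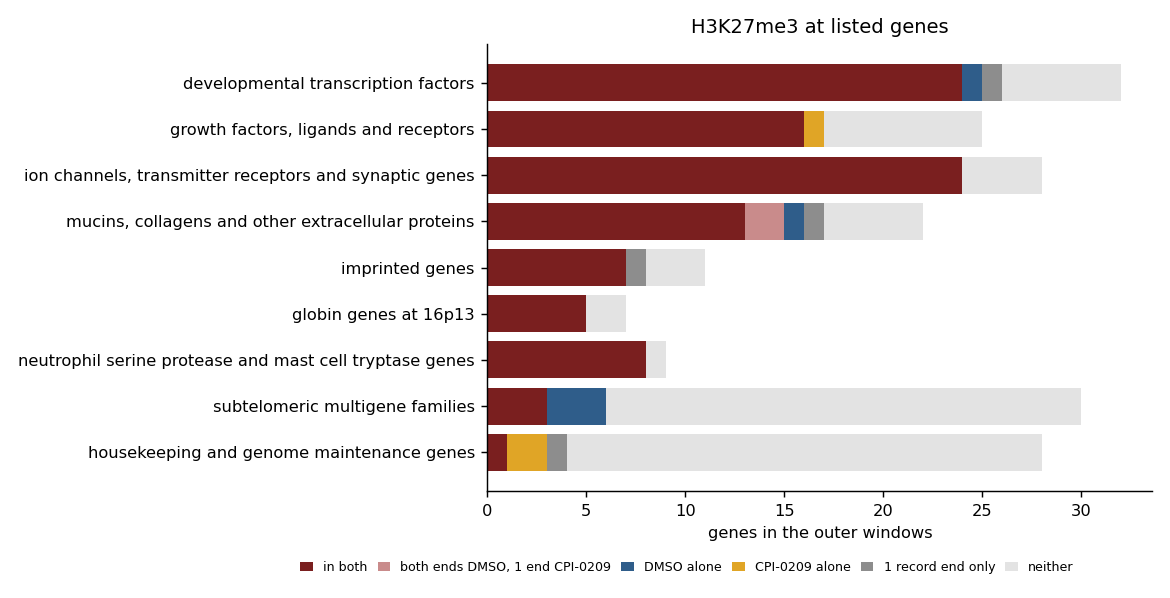
Number of genes of each list in the outer windows by H3K27me3 call: in both conditions, at both record ends in DMSO and 1 in CPI-0209, in DMSO alone, in CPI-0209 alone, at 1 record end only, or in neither. Listed ion channel and synaptic genes were marked in both at 24 of 28, and listed housekeeping genes at 1 of 28. The lists were chosen with earlier results of these data known.

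The outer windows hold 137 of the annotated miRNA hairpins, and 1324 lie in the rest. H3K27me3 domains contained 37 outer hairpins in CPI-0209 and 41 in DMSO, or 27% and 29.9%, against 9.37% and 16.4% of the rest. Of the 41, 34 were inside a domain in both conditions, 82.9% (67.9 to 92.8), against 57.1% (50.3 to 63.8) in the rest. Hairpins of 1 cluster share a domain and are not separate observations. MIR200B and MIR429 at 1p, the epithelial cluster with the shared seed, lay under 30.4 kb in CPI-0209 and 74 kb in DMSO. MIR203A at 14q, known for its role in keratinocyte differentiation, lay under 2.6 kb and 44 kb. MIR1-1 and MIR133A2 at 20q, muscle miRNAs, lay under 106.4 kb and 108.2 kb, the least changed in width of these. The hairpin of MIR126 at 9q, an endothelial miRNA within EGFL7, lay under no H3K27me3 in CPI-0209 and under 36.8 kb in DMSO. EZH2 there spanned 98.6 kb and 11.2 kb. The start of EGFL7 itself lay under H3K27me3 domains of 34 kb in CPI-0209 and 36.8 kb in DMSO. MIR340 at 5q was without both in CPI-0209, and in DMSO lay under 19 kb of H3K27me3 and 11.2 kb of EZH2.

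The 3 H3K27me3 domains of DMSO just inside the 3 Mb limit measured 10.4 kb at 7q, 6.8 kb at 10q and 10.2 kb at 18q, of which the first was covered to 30.8% in CPI-0209 and the others not at all. The 3 just outside measured 26.8 kb at 5p, 3.6 kb at 15q and 4.4 kb at 17p, of which the first was covered to 39.6% and the others not at all.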

How the data were processed

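ChIP-seq of 4 libraries (EZH2 and H3K27me3, CPI-0209 and DMSO, 1 each) was read from interval lists deposited by the authors, which per the file headers hold chromosome, start and end alone. The submitters' processing notes name BWA, SICER and hg38; versions, roles, filters and the use of the input are not given in the sources used here. Starts lie on a 200 bp grid. Overlapping intervals were merged per list, and domains were assigned by midpoint. Covered shares count base pairs inside the windows, retention counts whole member domains, and overlap means at least 1 bp. The rest includes unassembled stretches. Genes, promoters and miRNAs came from RefSeq tables of GRCh38.p14; of the planned gene windows, those of genes without a listed start used both record ends. Members and lists were chosen with earlier results of these data known. List genes named are the first 4 per outcome in list order, with WNT5B and the tryptase genes added. Domains named are the widest per library, and miRNAs were named after their values were seen. Code was tested on simulated intervals. Alternatives covered window size, merging, overlap, list length, left-out chromosomes and gene windows. Python 3.11.15, numpy 2.4.6, pandas 2.3.3, SciPy 1.17.1 and matplotlib 3.10.9 were used.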

Additional observations from a re-analysis of the deposited data

How the results depend on the processing

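Of 152 values recomputed for 22 results, 150 kept their direction and 119 lay within 1.5 times the main value or, for counted shares, within the limits of the outer share. The other 2 changed direction: the outer minus rest difference in H3K27me3 length in CPI-0209 alone was 0.135 percentage points and -0.0159 with 10 Mb windows, and that in H3K27me3 retention without EZH2 was 1.69 and -0.506 with EZH2 of CPI-0209 (2.997 with 50% of a domain required under EZH2). The first was 0.0651, 0.0103 and 0.0411 with 1 Mb windows, 5 Mb windows and stretches under 2 intervals. Differences in H3K27me3 domains met (24.9 points) were 27.7, 22 and 16.6 with windows of 2, 5 and 10 Mb, 30.8 when 50% of a domain had to be covered and 3.07 with shortened lists; for EZH2 (10.9) they were 9.41 and 8.66 with 1 and 10 Mb, 18.2 at 50% and 28.6 with shortened lists. Differences in genes marked in both conditions were 8.56 with 10 Mb windows and 22.7 at 50% of the gene window for H3K27me3 (14.2), and 3.43 with 1 Mb windows and 12.6 at 50% for EZH2 (4.54). Stretches under 2 intervals gave cover ratios of 9.34 for EZH2 DMSO and 16.8 for H3K27me3 CPI-0209, and a retained H3K27me3 length difference of 12.9 points in place of 28.1. Against the next 3 Mb inward, an alternative chosen after seeing the data, cover ratios were 1.71 for EZH2 CPI-0209, 1.71 for EZH2 DMSO, 1.77 for H3K27me3 CPI-0209 and 1.36 for H3K27me3 DMSO, and retained length differences 13.8 for H3K27me3 and 5.25 for EZH2. With both record ends of all genes, also chosen after seeing the data, the marked share was 2.63, 2.59 and 3.21 times that of the rest for EZH2 CPI-0209, EZH2 DMSO and H3K27me3 CPI-0209, and kept differences were 27.8 for H3K27me3 and 10.6 for EZH2. Leaving out 1 chromosome at a time gave retained length differences of 27 to 29 points for H3K27me3 and 16.6 to 17.5 for EZH2. The cause of these moves was not tested. A ratio near 1, such as 1.23 for genes marked by EZH2 in DMSO, could fall to 1 and still lie within 1.5 times the main value. For such ratios the count of values within the limits says little about stability. No paired analysis was possible because each group has 1 library, and the unknown depth limits every comparison of called length between libraries.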
